A study of Mus musculus with 4 samples.

Results

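The aminoacyl-tRNA synthetase genes were taken from the deposited tables by symbol: a capital letter followed by ars, with or without a final 1 or 2, plus Eprs, Farsa and Farsb. This gave 37 of the 24411 listed genes, 20 for cytosolic and 17 for mitochondrial enzymes. Symbols ending in 2 were counted as mitochondrial, and Gars and Kars, which each encode a cytosolic and a mitochondrial form, were counted as cytosolic because the tables hold no separate value for the forms. The libraries are polyadenylated RNA from morula stage embryos of the ICR mouse strain, made by in vitro fertilization, with the RNA prepared by a SMART-Seq kit. Embryos were electroporated at 3 hpi as 1-cell embryos with control siRNA (siControl, 2 libraries) or with siRNA against Pwp1 (siPwp1, 2 libraries) and cultured in KSOM with bovine serum albumin to 72 hpi. All groups thus share the protocol of fertilization, electroporation and culture, though the labels do not say that they share a batch. Each library pools 10 embryos, so embryos cannot be told apart within it. In such bulk libraries, fewer cells of a type and less RNA per cell cannot be told apart.

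Aminoacyl-tRNA synthetases attach each amino acid to its transfer RNA and so supply the ribosome with charged tRNA. Animal cells keep separate enzymes for the cytosol and for mitochondria, and the mitochondrial ones are nuclear-encoded, are imported, and serve the translation of the few proteins encoded by the mitochondrial genome. Several cytosolic enzymes are held together with the scaffold proteins Aimp1, Aimp2 and Eef1e1 in the multi-synthetase complex, and many cytosolic synthetase genes are known targets of Atf4, the transcription factor of the amino acid and integrated stress response.

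Atf4 is known to act through the C/EBP-ATF response element, whose core TGATGNAA was searched on both strands from 250 bases before to 50 bases after each RefSeq transcription start (GRCm38.p6). Of the 27 members with a promoter entry, 5 of 13 cytosolic genes and 0 of 14 mitochondrial genes held a match, against 3.97% of all 32851 promoter entries. A match in each of these 5 genes is shown on the strand of the gene in windows of 30 bases, with the match in capitals (an antisense match reads TTNCATCA), to set beside the values of these genes. The 10 members without an entry, 7 of them cytosolic, were not searched.
Yars, chr4:129189895-129189924: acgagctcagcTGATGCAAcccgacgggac
Gars, chr6:55037960-55037989: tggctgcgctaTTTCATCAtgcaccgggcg
Aars, chr8:111033840-111033869: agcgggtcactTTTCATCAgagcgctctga
Iars, chr13:49682126-49682155: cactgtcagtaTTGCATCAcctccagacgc
Tars, minus strand, chr15:11399655-11399684: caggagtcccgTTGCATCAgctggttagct
The matches began 30 bases before the start in Gars and 15 before it in Tars. They began at base 4 after the start in Yars, base 8 in Iars and base 10 in Aars. A match is a stretch of letters and was not tested as a binding site.

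Total expected counts were 28981358 and 44985949 in siControl replicates 1 and 2 and 48765229 and 30356988 in siPwp1 replicates 1 and 2. The synthetase genes took 60831 to 108768 of these counts for the cytosolic and 25746 to 58723 for the mitochondrial class. Pwp1, the targeted gene, stood at 91.4 and 167 TPM (a level scaled by transcript length and library total) in siControl and at 16.1 and 16.9 TPM in siPwp1, a log2 fold change of -2.97 (SE 0.333; edgeR adjusted p = 0.2204; DESeq2 adjusted p = 1.467e-12). Of 10 morula markers, 8 were at 1 TPM or more in every library, and Sox2 and Cdx2 were under 1 TPM in at least 1 library. The summed level of 5 cumulus markers was 0 to 0.13 TPM, of 5 fibroblast markers 0.03 to 0.31, of 5 sperm markers 0 to 2.97 in siControl and 0.91 to 3.14 in siPwp1, and of 5 blood markers 0.05 to 2.33 in siControl and 0.01 to 7.07 in siPwp1. Among them Ptx3, Inhba, Hbb-bt, Hbb-bs, Col3a1 and Dcn were listed at 0 in all 4 libraries.

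Every one of the 37 genes was detected in all 4 libraries and passed the filter on low counts. On the TPM scale the cytosolic genes had mean levels over the 4 libraries from 2.68 (Vars) to 200.1 (Rars), with a median of 34.3. The mitochondrial genes ran from 0.357 (Aars2) to 216.9 (Lars2), with a median of 4.94. The plot of levels by gene shows this order.

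**Figure D1:**
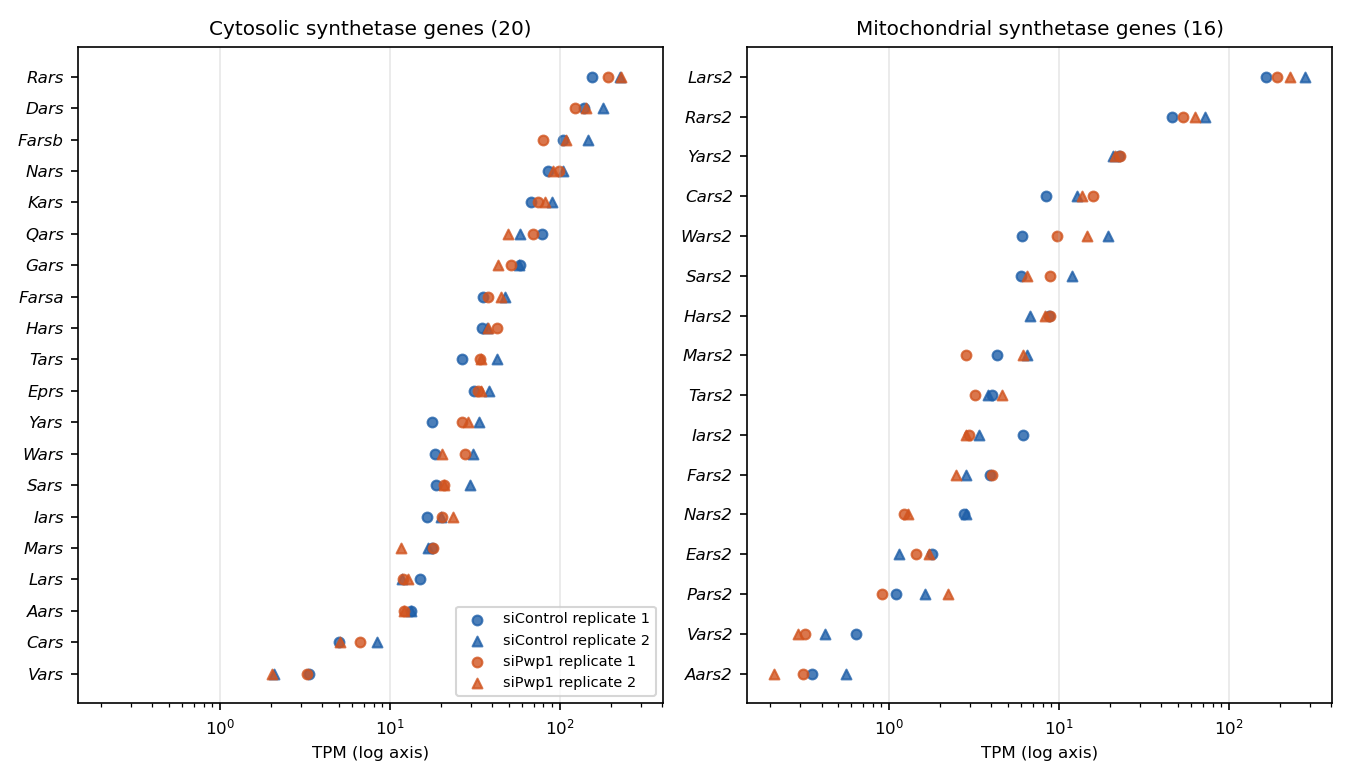
TPM of each synthetase gene in each of the 4 libraries on a log axis, cytosolic genes on the left and mitochondrial genes on the right, ordered by mean level. Blue points are siControl and orange points siPwp1, circles replicate 1 and triangles replicate 2; the cytosolic class is centred near 34.3 TPM and the mitochondrial class near 4.94, with Lars2 far above its class (1 mitochondrial gene is not drawn).

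Among cytosolic enzymes the most abundant transcript was Rars, which encodes arginyl-tRNA synthetase, at 154.8 and 225.9 TPM in siControl and 191.2 and 228.5 TPM in siPwp1. Dars, for aspartyl-tRNA synthetase, followed at 138.8 and 179.7 TPM in siControl and 122.7 and 143.1 TPM in siPwp1. Farsb, for the beta subunit of phenylalanyl-tRNA synthetase, came next by the mean over the 4 libraries at 104.6 and 146.7 TPM in siControl and 79.4 and 109.1 TPM in siPwp1. Rars was above Dars and Dars above Farsb within every library, although the ranges of neighbours over the 4 libraries overlapped. Nars, for asparaginyl-tRNA synthetase, was above Farsb in siPwp1 replicate 1, at 98.9 TPM. At the low end stood Cars, for cysteinyl-tRNA synthetase, at 5.02 and 8.38 TPM in siControl and 6.65 and 5.11 TPM in siPwp1. Vars, for valyl-tRNA synthetase, was lowest at 3.34 and 2.09 TPM in siControl and 3.25 and 2.03 TPM in siPwp1.

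The 8 enzymes of the multi-synthetase complex were not at equal transcript levels. Lars, for leucyl-tRNA synthetase, had the lowest mean level of the complex at 12.9 TPM, and Rars the highest at 200.1 TPM. Their summed level was 520.5 and 640.4 TPM in siControl and 540.8 and 584.9 TPM in siPwp1, so the siPwp1 libraries lay between the siControl libraries. Of the 8, Dars was lower in both siPwp1 libraries on the CPM scale and Iars, for isoleucyl-tRNA synthetase, was higher.

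Lars2, for mitochondrial leucyl-tRNA synthetase, stood at 165.1 and 281.8 TPM in siControl and 191.7 and 229 TPM in siPwp1. It made up 55.4% and 60.8% of the summed mitochondrial level in siControl and 57% and 58.8% in siPwp1. Rars2 and Yars2, for the arginyl and tyrosyl enzymes, were next. Rars2 was at 46.1 and 72.3 TPM in siControl and 53.9 and 63.3 TPM in siPwp1. Yars2 was at 22.7 and 20.8 TPM in siControl and 22.7 and 21.2 TPM in siPwp1, the 4 libraries lying close together. Vars2 and Aars2, for the valyl and alanyl enzymes, were the lowest, with 35 to 78 and 19 to 72 counts per library.

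For 14 amino acids a cytosolic and a mitochondrial gene were listed under symbols with the same stem, and these were paired. The cytosolic transcript was the more abundant in all 4 libraries for 11 of these pairs. The order was the opposite for leucine (Lars against Lars2) and cysteine (Cars against Cars2), and for tyrosine it differed between libraries. Glutamate and proline (Eprs against Ears2 and Pars2) and phenylalanine (Farsa and Farsb against Fars2) have cytosolic symbols of another form and were not counted as pairs. There too the cytosolic transcripts were the more abundant in all 4 libraries. The TPM ratio of Lars to Lars2 was 0.0909 and 0.0418 in siControl and 0.0625 and 0.056 in siPwp1. Cars stood at 0.596 and 0.653 of Cars2 in siControl and at 0.42 and 0.374 in siPwp1. The cysteine ratio was thus lower in both siPwp1 libraries, whereas the leucine ratio overlapped. Of the 14 ratios, cysteine was the only 1 without overlap that was lower in siPwp1. Another 5 were without overlap and higher in siPwp1: those for alanine, isoleucine, asparagine, arginine and valine. With so few libraries an exact permutation test cannot give a p below 0.333, so a single ratio without overlap does not show a group difference. Among single genes, 28.7% of all tested were without overlap on the CPM scale, and no such share was taken for ratios. The counts of 1 and 5 therefore do not show a shift between the classes.

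The design sets siPwp1 against siControl, and so asks which transcripts differ at the morula stage after Pwp1 is targeted. For the synthetase genes it gave 0 calls in either direction, in the cytosolic and in the mitochondrial class, with edgeR's quasi-likelihood test adjusted over all 13585 genes tested. The background was 0% of all genes called higher and 0% called lower. At an unadjusted p under 0.05 there were 0 members higher and 1 lower (Nars2), where 1.84% of all genes were higher and 0.824% lower. DESeq2 also called 0 members, against 0.309% of all genes higher and 0.0147% lower. Every member's adjusted p was 0.9998 with edgeR.

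The median log2 fold change, siPwp1 minus siControl, was -0.07 over the 20 cytosolic and -0.09 over the 17 mitochondrial genes, beside 0.00 over all genes tested. All 20 cytosolic genes lay within 0.5 of 0 on the log2 scale, as did 13 of 17 mitochondrial genes and 68.2% of all genes. The 95% interval of the log2 fold change (from the edgeR SE) stayed inside a 2-fold change in both directions for 17 cytosolic and 4 mitochondrial genes. For the other members a change of 2-fold or more in at least one direction lies within the interval, and the missed threshold does not show equal levels. Of the 37 fold changes 29 were below 0, against 50.1% of all genes. This share moved with single libraries. Without siControl replicate 2, the library with the highest TPM of the 4 for 19 members, 19 of 37 were below 0, 8 of 20 cytosolic and 11 of 17 mitochondrial. Without either siPwp1 library it was 22 of 37, and without siControl replicate 1 it was 26. On log2(TPM + 1), where 35 members passed the filter, 21 were below 0.

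**Figure D2:**
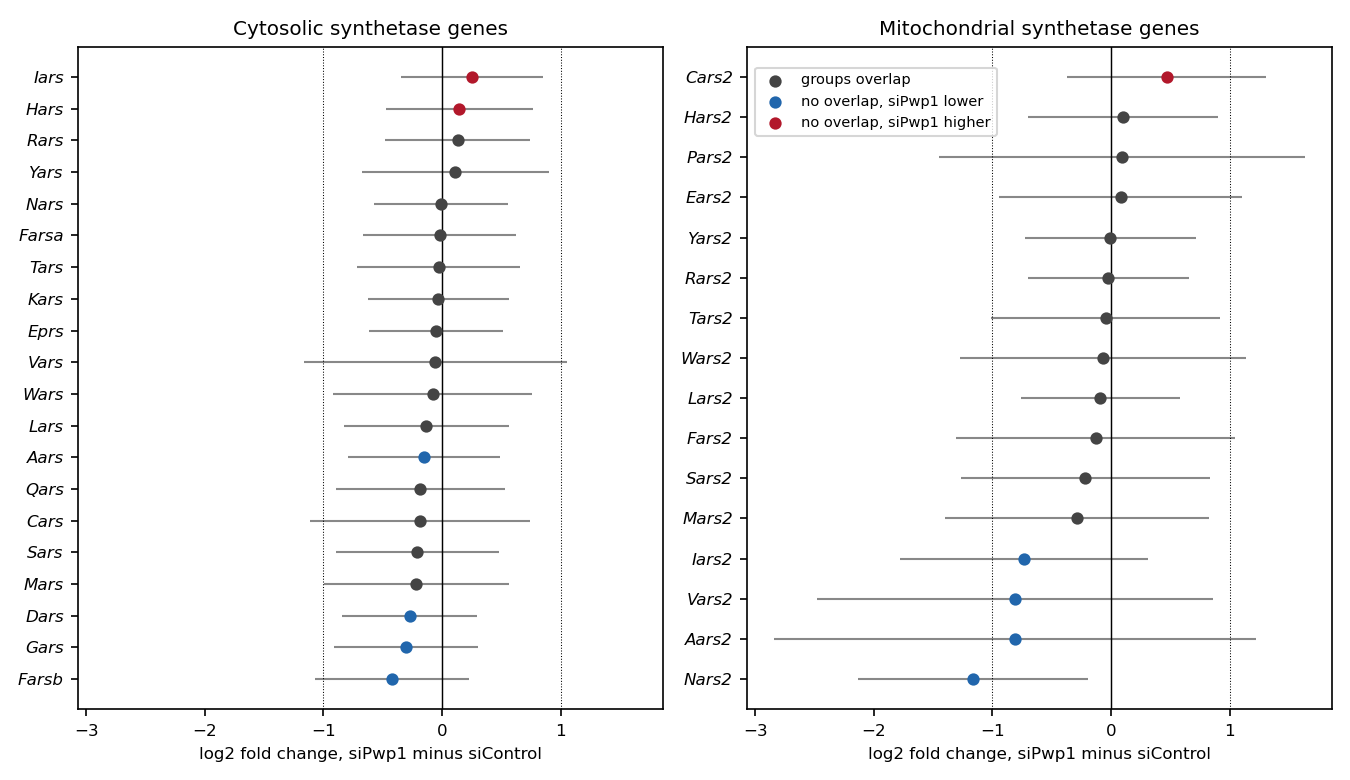
Log2 fold change of each gene, siPwp1 minus siControl, with its 95% interval from the edgeR fit of 2 against 2 libraries; dotted lines mark a 2-fold change. All intervals drawn include 0 except that of Nars2 (1 mitochondrial gene is not drawn), and the median SE is 0.27 for cytosolic and 0.43 for mitochondrial genes.

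Summed over each class, the synthetase level did not separate the groups. The cytosolic genes summed to 942.4 and 1194 TPM in siControl and to 982.4 and 1035 TPM in siPwp1. The mitochondrial genes summed to 297.7 and 463.8 TPM in siControl and to 336.3 and 389.4 TPM in siPwp1. In both classes siControl replicate 1 was the lowest and siControl replicate 2 the highest library, and both siPwp1 libraries lay between them. Without siControl replicate 2 the log2 ratio of the sums turned from -0.08 to 0.10 for the cytosolic and from -0.07 to 0.29 for the mitochondrial genes.

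Synthetases fall into class I, built on a Rossmann fold, and class II, with an antiparallel beta sheet as catalytic core. The bifunctional Eprs was counted as class I. Over the 19 class I genes the median was -0.06 on the log2 scale, and they summed to 619.4 and 863.9 TPM in siControl and to 709.1 and 768.7 TPM in siPwp1. Over the 18 class II genes the median was -0.14, and they summed to 620.7 and 794.2 TPM in siControl and to 609.7 and 655.3 TPM in siPwp1. Only siPwp1 replicate 1 lay below both siControl libraries in class II.

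Groups that do not overlap on the CPM scale were found for 8 genes lower in siPwp1 (14.1% of all genes) and 3 higher (14.7% of all genes). In total 11 of 37 members were without overlap, against 28.7% of all genes, a share near the background. The lower ones were Nars2, Iars2, Vars2 and Aars2 among the mitochondrial genes and Farsb, Dars, Gars and Aars among the cytosolic ones. The higher ones were Cars2, Iars and Hars. On the TPM scale Farsb and Dars overlapped.

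Nars2, for mitochondrial asparaginyl-tRNA synthetase, had the smallest p of all members, at rank 192 of 13585. It was at 2.75 and 2.82 TPM in siControl and at 1.22 and 1.29 TPM in siPwp1, from 281 and 408 counts in siControl and 213 and 129 counts in siPwp1. Both siPwp1 libraries lay well below both siControl libraries, and the replicates of each group lay close together. The log2 fold change was -1.16 (SE 0.407, 95% interval -2.13 to -0.19; unadjusted p = 0.0252, edgeR adjusted p = 0.9998), a 2.24-fold lower level. It was the only member at least 2-fold apart without overlap, where 2.38% of all genes were as far apart on the lower side. The log2 value ran from -1.13 to -1.20 when any 1 of the libraries was left out, and was -0.75 on log2(TPM + 1), a scale that understates changes of low genes.

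The Nars2 gene spans chr7:96951505-97064758, plus strand, in GRCm38. Of its exonic bases, 284 (4.08%) are shared with C230038L03Rik on the opposite strand. Reads there cannot be told apart without strand, which is not given in the sources used here. C230038L03Rik is not among the listed genes under that symbol, so the whole expected counts of Nars2 do not bear on this sharing. Nars, the cytosolic counterpart of Nars2, was at 85.4 and 104.6 TPM in siControl and at 98.9 and 91.4 TPM in siPwp1, with full overlap. The TPM ratio of Nars to Nars2 was thus 31.1 and 37.1 in siControl and 81.1 and 70.8 in siPwp1, or 34.1 ± 4.26 and 75.95 ± 7.22 (SD, n = 2).

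**Figure D3:**
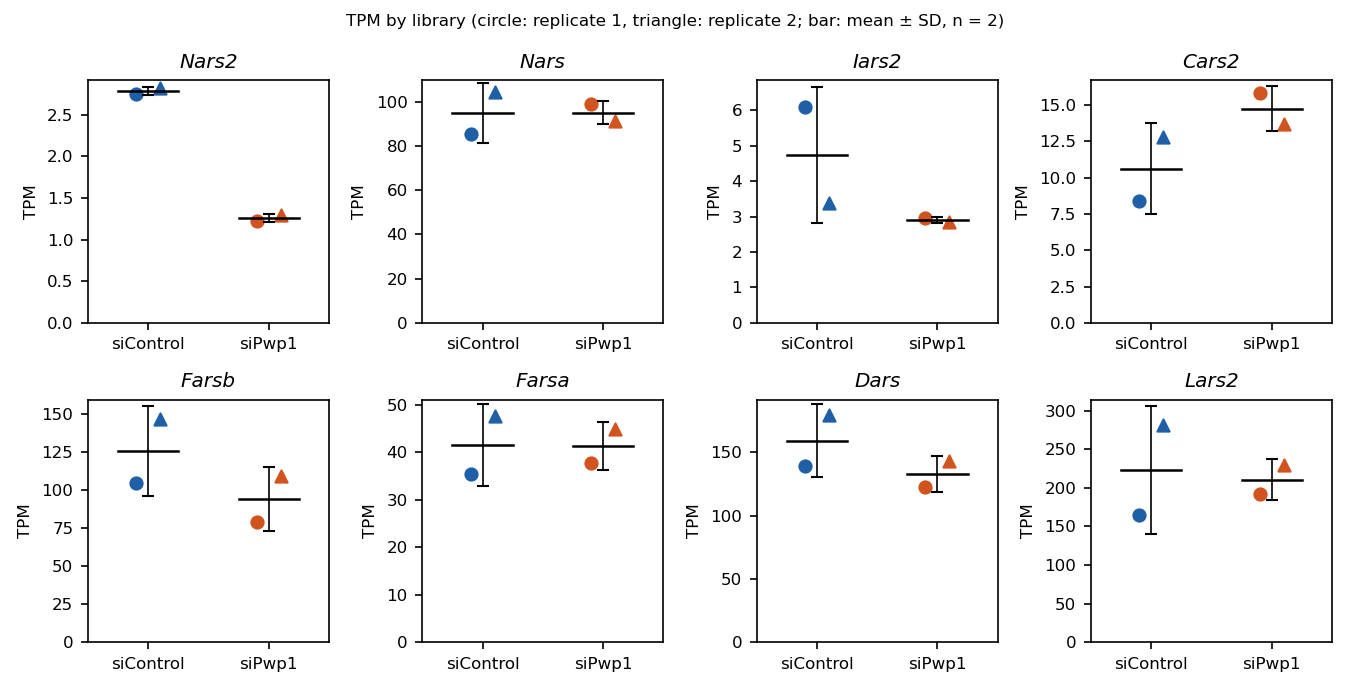
TPM by library for 8 synthetase genes, each panel on its own linear axis from 0; circles are replicate 1, triangles replicate 2, and bars the mean ± SD of 2 libraries. Nars2 is apart by group (2.75 and 2.82 against 1.22 and 1.29 TPM), whereas Lars2 and Farsa overlap and Farsb and Dars are higher in replicate 2 of each group.

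The other mitochondrial genes without overlap had wider spreads. Iars2, for the isoleucyl enzyme, was at 6.10 and 3.39 TPM in siControl and at 2.96 and 2.85 TPM in siPwp1 (log2 fold change -0.74, SE 0.44; edgeR adjusted p = 0.9998). Its distance between groups was set by siControl replicate 1, and without that library the log2 fold change was -0.18, and without siControl replicate 2 it was -1.14. Iars2 shares 24.2% of its exonic bases with genes on the opposite strand, mainly Rab3gap2, which stood at 1.14 to 1.52 TPM.

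Vars2 was at 0.64 and 0.42 TPM in siControl and at 0.32 and 0.29 TPM in siPwp1. Aars2 was at 0.35 and 0.56 TPM in siControl and at 0.31 and 0.21 TPM in siPwp1. Both are low, and their 95% intervals span from -2.48 to 0.86 and from -2.84 to 1.22 on the log2 scale.

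Cars2, for mitochondrial cysteinyl-tRNA synthetase, was at 8.42 and 12.8 TPM in siControl and 15.8 and 13.7 TPM in siPwp1. The siPwp1 libraries were both higher, though the nearest libraries of the groups, at 12.83 and 13.67 TPM, were closer than the siControl replicates. Its log2 fold change was 0.47 (SE 0.354; edgeR adjusted p = 0.9998), and 0.24 to 0.74 with 1 library left out. Of its exonic bases 5.83% are shared with Naxd on the opposite strand. Naxd is not among the listed genes under that symbol, so the whole expected counts of Cars2 do not bear on this sharing.

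On the cytosolic side Farsb had the smallest p (log2 fold change -0.42, SE 0.273, unadjusted p = 0.1663, edgeR adjusted p = 0.9998). The log2 value ran from -0.64 to -0.23 with 1 library left out. In both groups replicate 2 lay above replicate 1, so the TPM values given above interleave: siPwp1 replicate 2, at 109.1, was above siControl replicate 1, at 104.6. Farsb was also the 1 member with expected counts that were not whole, which RSEM gives when reads are divided between genes. Of its exonic bases 9.47% are shared with Sgpp2 on the opposite strand. In siControl replicate 1 the expected counts were 6095.96 for Farsb and 16.04 for Sgpp2, so few Farsb reads can have been divided between these genes. Sgpp2 was listed at 0 to 0.15 TPM.

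Farsa encodes the alpha subunit of the same enzyme, a heterotetramer of alpha and beta subunits. It was at 35.5 and 47.7 TPM in siControl and at 37.8 and 45 TPM in siPwp1, with overlap. The ratio of Farsb to Farsa was 2.94 and 3.07 in siControl and 2.10 and 2.42 in siPwp1, or 3.01 ± 0.0909 and 2.26 ± 0.230 (SD, n = 2). Both siPwp1 ratios lay below both siControl ratios. A two-sided exact permutation test gave p = 0.333, the smallest p that 2 against 2 libraries allow, and the ratio was chosen after its values were seen.

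Gars, for glycyl-tRNA synthetase of cytosol and mitochondria, was at 58.4 and 57.5 TPM in siControl and at 51.6 and 43.1 TPM in siPwp1 (log2 fold change -0.30, SE 0.255). Dars had a log2 fold change of -0.27 (SE 0.240). Iars was at 16.5 and 19.9 TPM in siControl and at 20.3 and 23.4 TPM in siPwp1 (log2 fold change 0.25, SE 0.252). Its nearest libraries were at 19.87 and 20.28 TPM. A transcript of Gm4849 matches Iars over 1656 bases at 96% identity, which makes the level of Iars less certain. Gm4849 is not among the listed genes under that symbol, so the whole expected counts of Iars do not bear on this match. The 95% intervals of Gars, Dars and Iars all included 0. With 1 library left out, the log2 value ran from -0.47 to -0.15 for Gars and from -0.40 to -0.14 for Dars.

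Sars, for seryl-tRNA synthetase, overlapped at 18.6 and 29.6 TPM in siControl and 20.9 and 20.8 TPM in siPwp1. Mars, for methionyl-tRNA synthetase, overlapped at 17.6 and 16.7 TPM in siControl and 18 and 11.7 TPM in siPwp1. The spread between siControl replicates for Sars and between siPwp1 replicates for Mars exceeded the difference of the group means. Hars, for histidyl-tRNA synthetase, was at 34.9 and 37 TPM in siControl and 42.9 and 37.6 TPM in siPwp1, without overlap but with close neighbours. It shares 195 exonic bases with Hars2 on the opposite strand. The remaining cytosolic members had log2 fold changes from -0.19 (Cars) to 0.15 (Hars, included here), and the other mitochondrial ones reported here from -0.29 (Mars2) to 0.10 (Hars2).

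The genes with a match to the response element did not share a direction. Their log2 fold changes were -0.30 for Gars, -0.15 for Aars, -0.03 for Tars, 0.11 for Yars and 0.25 for Iars. The value for Tars turned to 0.01 with a filter of 5 CPM and to 0.02 on log2(TPM + 1). Aars, for alanyl-tRNA synthetase, was at 13.3 TPM in each siControl library and 12.1 TPM in each siPwp1 library. Its groups did not overlap, yet the difference was smaller than the SE of 0.269. Over 1326 bases it matches Exosc6, a gene on the same strand at 32.1 to 39.4 TPM. Yars was at 17.7 and 33.6 TPM in siControl and at 26.7 and 28.7 TPM in siPwp1, and Tars at 26.7 and 42.8 TPM in siControl and at 33.9 and 34.5 TPM in siPwp1. For both, siControl replicate 1 was the lowest and siControl replicate 2 the highest library.

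Differences between replicates were larger than those between groups for most synthetase genes, where a group difference is taken between means of 2 libraries. The absolute difference between replicates exceeded the absolute difference between groups for 27 of 37 members in siControl and for 24 in siPwp1. Single libraries vary more than means of 2, so most genes can show this without a group effect. The same count over all genes was not taken. The median absolute log2 difference over members was 0.45 between siControl replicates, 0.20 between siPwp1 replicates and 0.14 between groups. Over all genes tested the same medians were 0.48, 0.41 and 0.26. Wars2, for mitochondrial tryptophanyl-tRNA synthetase, was at 6.09 and 19.4 TPM in siControl replicates 1 and 2 and at 9.69 and 14.5 TPM in siPwp1 replicates 1 and 2. Some markers of the forming trophectoderm also differed by replicate: Krt8 was at 122.7 and 10.7 TPM in siControl and 76.4 and 14.6 TPM in siPwp1, and Gata3 at 42.1 and 8.15 TPM in siControl and 16.5 and 6.04 TPM in siPwp1. Cdx2, a further trophectoderm marker, was at 8.04 and 1.21 TPM in siControl and 3.1 and 0.5 TPM in siPwp1. Replicate 1 was the higher for all of these markers in both groups. Tead4 and Tfap2c, of the same lineage, went the other way: Tead4 was at 12.3 and 18.9 TPM in siControl and 12.2 and 14.1 TPM in siPwp1, and Tfap2c at 31.95 and 34.01 TPM in siControl and 30.5 and 37.8 TPM in siPwp1. Sox2, Cdh1 and Pou5f1, also on the morula list, were higher in replicate 1 of both groups too. Pou5f1 was at 81.1 and 58.2 TPM in siControl and 54.2 and 53.5 TPM in siPwp1. Dppa4 was higher in replicate 2 of both groups, and Nanog in replicate 1 of siControl but replicate 2 of siPwp1. The order by replicate was thus not confined to trophectoderm markers. All these markers were chosen after their values were seen, and their part in the synthetase differences was not tested. The labels do not say that replicates came from separate cultures, so a p-value here covers the spread among these libraries, which may be technical.

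**Figure D4:**
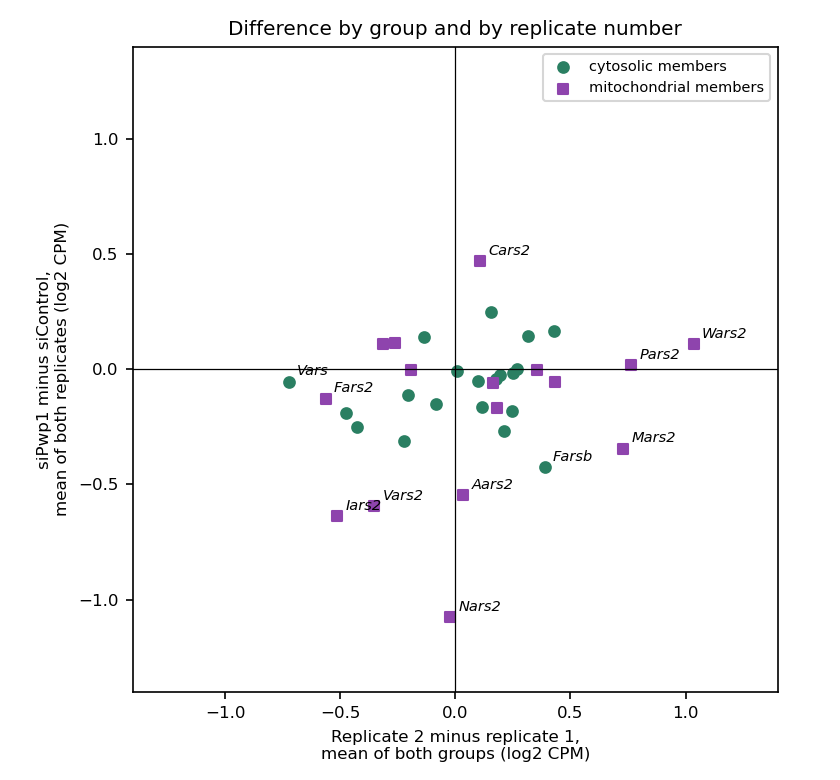
For each member but 1 mitochondrial gene, the difference of siPwp1 from siControl (vertical axis, log2 CPM) against the difference of replicate 2 from replicate 1 (horizontal axis, log2 CPM); each is a mean of 2 differences. Nars2 lies near 0 on the horizontal and near -1 on the vertical axis, and Wars2 the other way round, near 1 and near 0.

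Partners of the synthetases had no calls either. The list also holds Tarsl2, a synthetase gene that the symbol rule leaves out, which is among the lower genes without overlap. Of 23 genes for scaffold proteins, tRNA editing, amidation, export and elongation, 0 were called higher and 0 lower, 0 had an unadjusted p under 0.05 (1.84% of all genes higher and 0.824% lower), and the median log2 fold change was 0.01. Groups did not overlap for 5 lower and 3 higher genes, beside 14.1% and 14.7% of all genes. Eef1e1, a scaffold protein of the complex, was at 953.9 and 905.9 TPM in siControl and at 792 and 753.4 TPM in siPwp1 (log2 fold change -0.29, SE 0.223), with no overlap. Xpot, the nuclear exporter of tRNA, was at 35.5 and 26.5 TPM in siControl and at 24.4 and 25.7 TPM in siPwp1. Aarsd1, which edits mischarged tRNA for alanine, was at 24.3 and 30.5 TPM in siControl and at 32.8 and 41.8 TPM in siPwp1. Ptrh2, a peptidyl-tRNA hydrolase gene, was at 29.2 and 36.3 TPM in siControl and at 35.5 and 46.5 TPM in siPwp1, with overlap in TPM but not in CPM. The adjusted p was 0.9998 with edgeR for each of these 4 genes.

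Of 22 genes of the amino acid and integrated stress response, 0 were called, 1 higher and 0 lower had an unadjusted p under 0.05, and the median log2 fold change was -0.05. Over all genes 1.84% were higher and 0.824% lower at that p. Groups did not overlap for 3 lower and 2 higher genes, beside 14.1% and 14.7% of all genes. Atf4 itself, chosen after its values were seen, was at 60.6 and 90.9 TPM in siControl and at 83.4 and 67.8 TPM in siPwp1, with both siPwp1 libraries between the siControl ones. Ddit3, which encodes the stress-induced factor CHOP, was at 10.5 and 5.07 TPM in siControl and at 20.4 and 18.5 TPM in siPwp1 (log2 fold change 1.27, SE 0.506, unadjusted p = 0.04119, edgeR adjusted p = 0.9998). Leaving out siControl replicate 1 gave a log2 value of 1.95, and leaving out siControl replicate 2 gave 0.80. It lies on the strand opposite to Mars, and the genes share 68 exonic bases, 1.99% of those of Mars. Eif2ak4, for the kinase that senses uncharged tRNA, was at 1.16 and 2.05 TPM in siControl and at 0.50 and 1.13 TPM in siPwp1. Chac1 and Vldlr, a pair of response targets, were low. Chac1 was at 0.55 and 1.35 TPM in siControl and at 0.66 and 0.19 TPM in siPwp1. Vldlr was at 0.08 and 0.32 TPM in siControl and at 0.10 TPM in each siPwp1 library. Both overlapped between groups.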

How the data were processed

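Per the file headers, the authors deposited RSEM expected counts, TPM and FPKM per gene for each library. Per the submitters' processing notes, the tools were STAR 2.7.10 and RSEM 1.3.3 on mm10; for trimming, annotation release and strand, the sources used here give nothing. The deposited expected counts were not normalized; the deposited TPM were scaled by the authors within each library, and FPKM were not used.

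Here, expected counts were rounded and tested with edgeR 4.0.16 in R 4.3.3 (filterByExpr with a minimum count of 10, TMM, quasi-likelihood test, group as the single term, two-sided, Benjamini-Hochberg over 13585 genes, threshold 0.05). SEs were derived from the fold change and the square root of F, and intervals use 6.84 degrees of freedom. Levels are TPM; overlap of groups was read on CPM scaled by TMM. Alternatives used DESeq2 1.42.0, limma 3.58.1, other filters and left-out libraries. The edgeR step was tested on simulated data with large fold changes and a fixed spread. That check does not show how smaller changes would be called in these libraries. Gene positions and exon overlaps are from GENCODE M21 (GRCm38, the assembly of mm10), and promoters from RefSeq. All 37 members matched in both annotations, and the file's Mars is Mars1 in RefSeq.

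Members and lists were chosen with earlier results of these data known. Values in every library were given, within each class, for the 6 members with the smallest unadjusted edgeR p and the 3 with the highest and 2 with the lowest mean TPM, for any member at least 2-fold apart without overlap, and for the 4 genes with the smallest p of each other list. Nars, Farsa, Wars2, Lars, Aars, Hars, Tars, Yars, Atf4 and the overlapping neighbour genes were added after their values were seen. So were the markers Krt8, Gata3, Cdx2, Tead4, Tfap2c, Sox2, Cdh1, Pou5f1, Dppa4 and Nanog. The values of 1 mitochondrial member and 1 promoter window are not reported here.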

Additional observations from a re-analysis of the deposited data

How the results depend on the processing

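No synthetase gene was called under any alternative run. Over all genes, where edgeR called 0, there were 106 calls without a filter on low counts, 44 with DESeq2 and 6 to 142 when 1 library was left out (6 without replicate 1 and 142 without replicate 2 of siControl; 102 and 38 without replicates 1 and 2 of siPwp1). Those fits take the spread of the lone library from the other group. Replicate numbers are shared by the groups, but nothing in the labels pairs the libraries. Even so, the difference of replicate 2 from replicate 1 correlated between groups across genes. The correlation was r = 0.43 over 13585 genes and r = 0.361 over the 37 members. Whether a replicate number marks a shared batch was not tested. With the replicate number as a block there were 80 calls (71 higher, 9 lower), and the adjusted p of Nars2 was 0.311, and over its alternatives it ranged from 0.311 to 1. Pwp1 passed the threshold without the filter, with DESeq2, with the block (adjusted p = 0.000208) and without any 1 library. With 1 library left out, the cytosolic median log2 fold change ranged from -0.16 to 0.0923 and the mitochondrial one from -0.29 to 0.0012, and the log2 ratio of summed TPM from -0.24 to 0.10 and from -0.35 to 0.29. Without Lars2, chosen after seeing the data, the mitochondrial ratio was -0.04. Of 420 alternative values for 36 named genes, 364 kept direction and side of the threshold, 49 changed sign and 7, all of Pwp1, passed the threshold. Sign changes by leave-one-out ranges were -0.46 to 0.10 for Sars, -0.60 to 0.0867 for Mars, -0.0694 to 0.36 for Rars, -0.47 to 0.38 for Vars, -0.48 to 0.17 for Cars, -0.38 to 0.28 for Lars2, -0.27 to 0.27 for Rars2, -0.12 to 0.11 for Yars2, -1.60 to 0.31 for Vldlr, -0.28 to 0.29 for Tars, -0.24 to 0.57 for Yars, -0.0949 to 0.0865 for Nars, -0.17 to 0.14 for Farsa, -0.64 to 0.92 for Wars2, -0.35 to 0.11 for Lars and -0.23 to 0.25 for Atf4. A filter of 5 CPM gave 0.0155 for Rars2, 0.0316 for Yars2, 0.0140 for Tars, 0.0333 for Nars, 0.0179 for Farsa and 0.0312 for Atf4. On log2(TPM + 1) and log2(TPM + 0.1), limma gave 0.0154 and 0.0161 for Rars2, 0.0163 and 0.0170 for Yars2, 0.0153 and 0.0167 for Tars, 0.0183 and 0.0188 for Atf4, 0.00861 and 0.00875 for Nars, 0.00232 and 0.00259 for Farsa and 0.10 and 0.12 for Wars2. Yars2 was at 0.000406 with DESeq2 size factors and 0.000743 with DESeq2, and the block gave 0.0015 for Tars and 0.11 for Wars2. The cause of these changes was not tested. Aars2 and Vars2 did not pass the TPM filter of 1 in 2 libraries. Counts of 19 to 78 per library limit the values of Aars2 and Vars2.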
